A study of Mus musculus with 6 samples.

Results

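White and brown fat markers were followed in sciatic nerves of mice, a tissue in which fat cells lie in the outer sheath (epineurium) around the nerve bundles. The set is 10 genes given by name, of which 9 (Adipoq, Lep, Retn, Pparg, Plin1, Cidec, Lipe, Ucp1 and Cidea) had a named row among the 20239 named genes of the arrays. The gene Cfd, which encodes the adipokine adipsin, was not named by the platform annotation used here and has no value below. Affymetrix whole-transcript arrays were used, with 1 array per mouse, and the deposited values are on a log2 scale, where a difference of 1 is a doubling.

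The 3 mutant mice had the genotype DhhCre::Sip1 flox/flox, in which the Cre recombinase is driven by the desert hedgehog (Dhh) promoter, active in the Schwann cell lineage, and cuts both floxed alleles of Sip1 (now called Zeb2). The 3 control mice were Sip1 flox/flox without Cre, so the floxed alleles are common to all 6 mice, and all were 25 days old. Each array holds RNA of a whole nerve with whatever tissue adhered to it. Fewer fat cells and less RNA per fat cell cannot be told apart in such bulk samples.

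White fat cells store triglyceride in a single large lipid droplet and release hormones called adipokines. Brown fat cells hold many small droplets and many mitochondria, and burn fuel for heat through the uncoupling protein UCP1. Both kinds depend on the nuclear receptor PPARG and share the proteins that coat and mobilise the droplet. Of the markers, leptin and resistin belong mainly to white fat, adiponectin and the shared droplet proteins to both kinds, and Ucp1 and Cidea, which is a droplet protein, to brown fat in mice.

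The labels give the tissue as sciatic nerve, and its content of myelin and muscle RNA differed between mice. All 5 measured myelin markers of 8 listed (Mbp, Mag, Pmp22, Pmp2 and Ncmap) were lower in the mutants, and their mean per array was 8.94 to 9.40 in the mutants, against 12.50 to 12.85 in the controls. The mean of 18 skeletal muscle markers, all measured, was 7.48, 12.49 and 9.90 in mutants 1 to 3, against 7.61, 12.57 and 10.42 in controls 1 to 3. Muscle RNA thus varied 34.1-fold between arrays and was highest in the mice numbered 2 of both groups. The mutants were 2 males (1 and 2) and 1 female, the controls 2 females (1 and 2) and 1 male, by their levels of Xist and of genes on the Y chromosome. The labels name no batch.

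The adipokines showed first of all a wide spread among the control nerves. Adiponectin, the insulin-sensitising hormone encoded by Adipoq, had log2 values of 11.42, 11.52 and 11.09 in mutants 1 to 3, against 12.55, 11.72 and 10.36 in controls 1 to 3. Leptin (Lep), the hormone that reports fat stores to the brain, stood at 8.06, 8.36 and 7.04 in the mutants, against 9.96, 8.86 and 7.20 in the controls. Resistin (Retn), an adipokine of white fat in mice, stood at 12.62, 13.02 and 12.28 in the mutants, against 13.36, 12.92 and 11.48 in the controls. For all 3 hormones control 1 was the highest of the 6 arrays, and the mutant values lay among the control values, except that leptin in mutant 3 was just below control 3.

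The proteins shared by both kinds of fat followed the same order of mice. Pparg, the transcription factor that switches on the fat cell programme, had values of 10.45, 10.97 and 10.08 in the mutants, against 11.81, 10.83 and 9.76 in the controls. Perilipin 1 (Plin1), which coats the droplet and gates lipolysis, had values of 11.01, 11.39 and 10.56 in the mutants, against 12.34, 11.39 and 10.03 in the controls. Cidec, which fuses small droplets into large ones, had values of 11.69, 11.90 and 11.46 in the mutants, against 12.49, 11.68 and 10.35 in the controls. All 4 shared genes were highest in control 1 and lowest in control 3, and so the control values enclosed those of the mutants. The same held for Lipe, hormone-sensitive lipase, at 11.66, 12.04 and 11.46 in the mutants, against 12.79, 12.06 and 10.78 in the controls.

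Counted together, the 7 white and shared markers had their highest value in control 1 in 7 cases and their lowest in control 3 in 6, and within the mutants number 2 was highest and number 3 lowest in 7 of 7. The standard deviation of the 3 arrays was 0.22 to 0.69 among the mutants, against 0.98 to 1.39 among the controls. All 9 measured markers had the larger SD in the controls, as had 62.9% of all genes. The lowest and highest control differed 4.55-fold in Adipoq and 6.75-fold in Lep, where the mutants differed among themselves 1.35-fold and 2.49-fold. The pooled SD within groups of each of the 9 markers exceeded that of at least 98.6% of all genes, whose median was 0.14.

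The brown fat markers varied still more. Ucp1, the mitochondrial proton carrier that makes brown fat produce heat, had values of 6.27, 8.19 and 6.03 in mutants 1 to 3, against 11.31, 9.27 and 6.63 in controls 1 to 3. Cidea had values of 6.58, 8.46 and 6.96 in the mutants, against 10.69, 9.005 and 7.79 in the controls. Controls 1 and 2 were the highest of the 6 arrays for both genes, and mutant 2 was the only mutant above control 3. The control values spanned 25.6-fold for Ucp1 and 7.48-fold for Cidea, where the mutants spanned 4.47-fold and 3.67-fold. A low array value may be background, and the values of Ucp1 near 6 lie below every array median of 7.995 to 8.08. So do those of Cidea in mutants 1 and 3 (6.58 and 6.96) and control 3 (7.79). The spans of both genes may therefore be compressed. Muscle RNA was nearly the lowest of all in control 1 (7.61), where both brown markers were highest, and its mean correlated with Ucp1 at −0.0074 and with Cidea at 0.045 (Pearson, 6 arrays, a description).

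**Figure D1:**
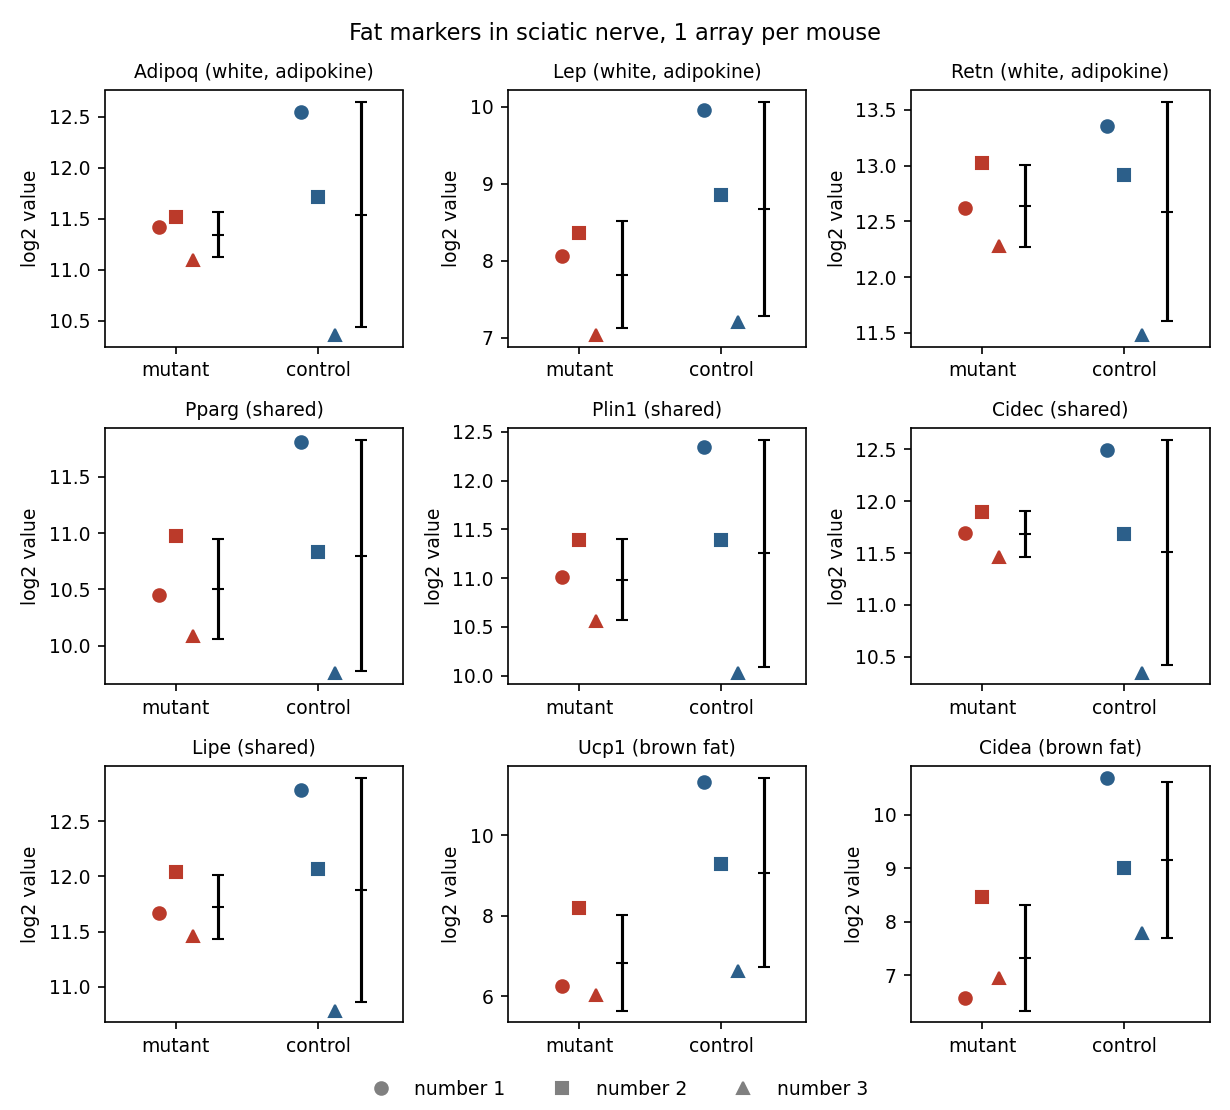
Log2 values of the 9 measured fat markers, 1 panel per gene, with the 3 mutant arrays (red) left of the 3 control arrays (blue), marker shape giving the replicate number and bars showing mean ± SD (n = 3 each). Axes differ between panels. Control 1 is highest in all 9 panels, control 3 is lowest in 6, and the groups overlap in all 9.

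The markers moved together from mouse to mouse. Over the 6 arrays the 21 pairs of white and shared markers had Pearson correlations of 0.80 to 0.99, with a median of 0.96, and the lowest was that of Lep with Cidec. Ucp1 and Cidea correlated at 0.98, and the 14 pairs of a brown with a white or shared marker at 0.55 to 0.94, with a median of 0.80. As deviations from group means, the mixed pairs correlated at 0.85 to 0.99 and the white and shared pairs at 0.96 to 0.999. These values are descriptions, since the points share 6 RNA samples with their muscle content and sex.

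The mean of the 7 white and shared markers, each taken as its distance from its own mean over arrays, is called the white fat profile here. Despite the name, it includes genes that brown fat cells also use. The profile stood at −0.08, 0.25 and −0.50 in mutants 1 to 3, against 1.12, 0.28 and −1.07 in controls 1 to 3, a 4.56-fold range. Among 1537 other genes with an SD over arrays of at least 0.5, the 10 most like this profile had correlations of 0.987 to 0.995 over the 6 arrays. They were Cebpa, a transcription factor of fat cell maturation, Lgals12, a galectin of fat cells, the amino acid transporter Slc7a10, lipoprotein lipase (Lpl), the carboxylesterase Ces1d, the triglyceride-synthesis enzymes Gpat3 and Dgat1, the phosphatase Acp5, Plbd1, and Mrap, the accessory protein of melanocortin receptors. Cebpa ran from 9.35 to 9.85 in the mutants, against 8.72 to 10.78 in the controls.

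Genes most like Ucp1 were Tmem120b (0.997), the transaminase Gpt (0.990), Nat8l (0.987), which makes N-acetylaspartate, Klhdc7a (0.986) and Paqr9 (0.984). Those most like Cidea were Otop1 (0.986), a proton channel found in brown fat of mice, the folate enzyme Aldh1l1 (0.979), Nat8l (0.979), Gm5168 (0.98) and Mecr (0.971), an enzyme of mitochondrial fatty acid synthesis. Otop1 had values of 7.70, 8.33 and 7.64 in the mutants, against 9.78, 8.72 and 8.18 in the controls, so its mutant values overlapped those of the controls only through mutant 2. None of these 9 genes passed between the groups, with limma adjusted p between 0.092 (Mecr) and 0.493 (Klhdc7a), where 9.62% of all genes passed. They were chosen for likeness to Ucp1 or Cidea over the same arrays, and neither Ucp1 nor Cidea passed. The result for these genes thus follows in part from the choice and cannot count as a separate test.

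The starts of Adipoq, Plin1, Lep, Retn and Ucp1 are shown as a description, while those of Cidea and the other markers are not shown. Each line is the 250 bases before the transcription start, 5′ to 3′ on the gene's strand, from RefSeq in build GRCm38.p6. The windows are chr16:23146286-23146535 (plus strand, Adipoq), chr7:79732777-79733026 (minus strand, Plin1), chr6:29059971-29060220 (plus strand, Lep), chr8:3655520-3655769 (plus strand, Retn) and chr8:83290098-83290347 (plus strand, Ucp1). Capitals mark exact matches, on either strand, to any of 5 motifs. The first is AGGTCA, the hexamer bound by PPARG, RXR and related receptors, and the next is its direct repeat DR1, which is that hexamer given again after any single base and so contains it. TTGCGCAA is a palindrome bound by C/EBP factors. The others are the CCAAT box, spelled as its name, and the TATA box, searched as TATAAA.
Adipoq: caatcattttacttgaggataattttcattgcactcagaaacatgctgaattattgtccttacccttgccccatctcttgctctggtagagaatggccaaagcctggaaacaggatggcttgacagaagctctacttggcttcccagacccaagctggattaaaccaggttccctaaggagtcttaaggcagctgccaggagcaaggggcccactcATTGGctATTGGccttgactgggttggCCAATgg
Plin1: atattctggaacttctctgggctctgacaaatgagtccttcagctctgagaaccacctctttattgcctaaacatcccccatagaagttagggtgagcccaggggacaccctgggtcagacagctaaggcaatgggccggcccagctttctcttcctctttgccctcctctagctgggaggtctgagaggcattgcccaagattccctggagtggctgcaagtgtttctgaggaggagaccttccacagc
Lep: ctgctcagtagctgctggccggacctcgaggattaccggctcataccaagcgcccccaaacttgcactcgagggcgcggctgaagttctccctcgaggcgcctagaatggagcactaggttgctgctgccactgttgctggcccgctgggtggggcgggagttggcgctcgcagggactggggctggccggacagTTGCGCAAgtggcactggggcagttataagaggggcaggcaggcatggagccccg
Retn: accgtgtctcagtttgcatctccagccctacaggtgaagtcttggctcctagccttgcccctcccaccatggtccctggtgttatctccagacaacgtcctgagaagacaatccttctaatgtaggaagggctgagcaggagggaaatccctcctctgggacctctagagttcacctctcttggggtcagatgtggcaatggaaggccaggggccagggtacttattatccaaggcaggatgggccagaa
Ucp1: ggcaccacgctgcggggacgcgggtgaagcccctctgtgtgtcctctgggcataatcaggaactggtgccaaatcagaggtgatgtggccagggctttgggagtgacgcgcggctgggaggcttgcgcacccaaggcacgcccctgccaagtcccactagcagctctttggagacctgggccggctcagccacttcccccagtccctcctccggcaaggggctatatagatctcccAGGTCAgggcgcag
In these windows the Adipoq start held 3 CCAAT matches, at −34, −27 and −7 from the start, of which the first and second read as ATTGG. The Lep start held the C/EBP palindrome at −55, and the Ucp1 start held 1 AGGTCA at −14. The Plin1 and Retn windows held none of these letters. Of all 32851 windows of this length, 14.0% held AGGTCA, 0.0335% the direct repeat, 0.164% the palindrome, 33.8% CCAAT and 12.4% TATAAA. A match describes letters and shows no bound factor.

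Between genotypes, 0 of the 9 markers passed (limma, Benjamini-Hochberg adjusted p under 0.05 over all 20239 genes), where 9.62% of all genes passed, 5.74% as higher and 3.89% as lower in the mutants. At an unadjusted p under 0.05 the count was also 0 of 9, where 22.4% of all genes reached it. The mutant and control values overlapped for 9 of 9, while 28.1% of all genes had groups that did not overlap. The 7 white and shared markers ranged from −0.85 (Lep) to 0.18 (Cidec), with a median of −0.20, where that of all genes was −0.02.

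The white and shared markers had wide intervals that all crossed 0. Adipoq averaged 11.34 ± 0.22 in the mutants and 11.54 ± 1.10 in the controls (SD, n = 3 each), a difference of −0.20 with a 95% confidence interval of −1.38 to 0.99 and a limma adjusted p = 0.861. Lep averaged 7.82 ± 0.69 in the mutants and 8.67 ± 1.39 in the controls, a difference of −0.85 (interval −2.48 to 0.77, limma adjusted p = 0.539). Both intervals reach well below and well above 0, so the arrays set only wide bounds for these hormones. Retn stood at 0.05 (−1.06 to 1.16), Pparg at −0.30 (−1.48 to 0.89), Plin1 at −0.27 (−1.57 to 1.03), Cidec at 0.18 (−0.99 to 1.34) and Lipe at −0.16 (−1.27 to 0.96), with limma adjusted p between 0.782 and 0.965.

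For 6 of these 7 genes the sign turned when a single nerve was left out. Without control 1 the differences were 0.31 for Adipoq, 0.21 for Pparg, 0.27 for Plin1 and 0.30 for Lipe, and without control 3 they were −0.50 for Retn and −0.40 for Cidec. Retn was also at −0.14 without mutant 2. None passed in any of these cases, and Lep alone was lower in the mutants without any one of the 6 arrays, by 0.21 to 1.59. Between mice of the same number, which the labels do not call pairs, Adipoq differed by −1.13, −0.19 and 0.73 for numbers 1, 2 and 3.

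The brown markers had the largest differences of the set, and they did not pass either. Ucp1 averaged 6.83 ± 1.18 in the mutants and 9.07 ± 2.34 in the controls (SD, n = 3 each), a difference of −2.24 (SE 1.16, interval −4.99 to 0.50, limma adjusted p = 0.323). Cidea averaged 7.33 ± 0.99 in the mutants and 9.16 ± 1.46 in the controls, a difference of −1.83 (SE 0.78, interval −3.68 to 0.02, limma adjusted p = 0.228). Each mutant was below the control of the same number for both genes. Ucp1 differed by −5.04, −1.08 and −0.60 and Cidea by −4.11, −0.55 and −0.83 for numbers 1, 2 and 3. The labels state no pairing, and each number sets a mouse of one sex against a mouse of the other. With the mean of the muscle markers as a covariate Ucp1 stood at −2.25 and Cidea at −1.83. Control 1 carried much of the difference, which without it was −1.12 for Ucp1 (limma adjusted p = 0.634) and −1.07 for Cidea (0.440).

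Brown markers were next read against the white fat profile of the same nerve, which includes genes of both kinds of fat. The distance of Ucp1 from its mean, minus the white fat profile, was −1.60, −0.01 and −1.42 in mutants 1 to 3, against 2.24, 1.04 and −0.25 in controls 1 to 3, and mutant 2 lay above control 3. For Cidea the same quantity was −1.59, −0.04 and −0.79 in the mutants, against 1.33, 0.47 and 0.61 in the controls, and these groups did not overlap. Taken the same way, 1.22% of all genes had groups that did not overlap, but the subtraction gives each gene the wide control spread of the profile. Lep minus the other 6 white and shared markers was −0.12, −0.16 and −0.83 in the mutants, against 0.69, 0.38 and 0.03 in the controls. Cidec ran the other way, at 0.20, 0.07 and 0.42 in the mutants, against −0.26, −0.23 and −0.20 in the controls. The groups did not overlap for Lep or Cidec, which have the lowest and highest group difference of the white and shared markers. The other white and shared markers were not read in this way, and the share of all genes was not counted for it. Thus the lack of overlap cannot be called particular to Lep and Cidec, and these differences within an array carry no test.

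**Figure D2:**
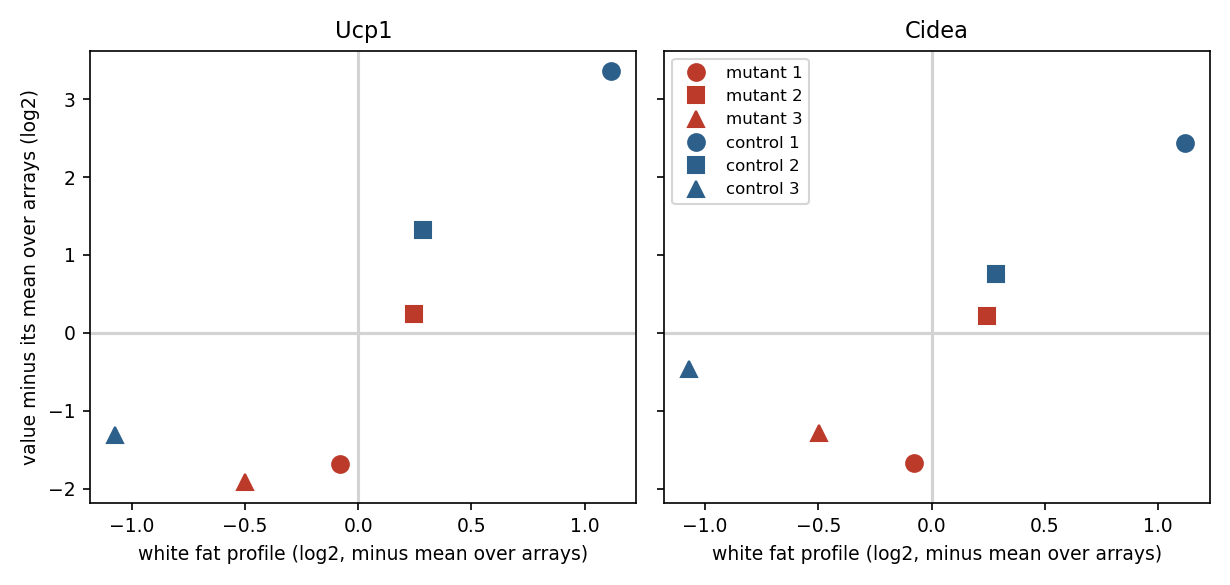
Ucp1 (left) and Cidea (right), each as log2 value minus its mean over the 6 arrays, against the white fat profile of the same array (log2, horizontal axis). Mutants are red and controls blue. Controls 1 and 2 lie at the upper right, at a profile of 1.12 and 0.28, and mutants 1 and 3 lie lowest for both genes, below control 3, whose profile of −1.07 is the lowest.

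A fit with fat content as a covariate used the mean of 13 other fat cell markers, none of them among the 9. That mean was 10.01, 10.41 and 9.92 in the mutants, against 11.26, 10.52 and 9.57 in the controls. With it, 12% of all genes passed, and so did Ucp1 as lower (−1.25, limma adjusted p = 0.0233) and Cidec as higher (0.59, 0.0204), while Cidea was at −1.20 (0.0719). With control 1 left out as well, Ucp1 stood at −1.33 (0.0266) and Cidec at 0.59 (0.0345). With the score and all 6 arrays, Adipoq, Pparg, Plin1 and Lipe lay at 0.13 to 0.25 and did not pass. The 13 markers include Sncg, which itself was lower in the mutants (−0.67). They also include Nnat (−1.55) and Npr3 (−0.46), which did not pass but had every mutant below every control. Groups that did not overlap were found for 28.1% of all genes. Of the 13, 10 had differences below 0 and 3 above, and the score itself differed by −0.34 between the groups. Fat content and genotype are estimated from the same 6 arrays.

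**Figure D3:**
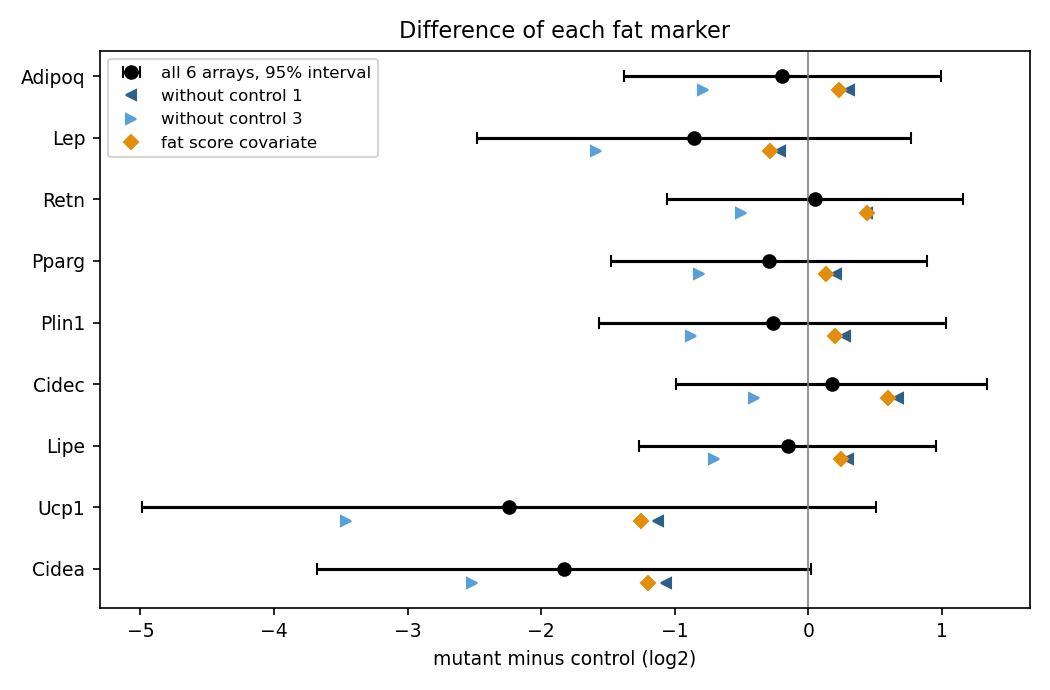
Difference of each measured fat marker, mutant minus control (log2), with all 6 arrays and its 95% confidence interval (black), without control 1 (dark blue), without control 3 (light blue) and with the score of 13 other fat cell markers as a covariate (orange). Ucp1 at −2.24 and Cidea at −1.83 lie farthest from 0, and every black interval crosses 0.

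Within each sex the white and shared markers ran in opposite directions. In males, both mutants (1 and 2) lay above the lone male control (3) for all 7 genes, and Adipoq differed by 1.11. In females, the lone mutant (3) lay below both controls for all 7, and Adipoq differed by −1.04. Of the brown markers, Ucp1 differed by 0.60 in males and −4.26 in females, and Cidea by −0.27 and −2.89. For both genes mutant 2 lay above the male control and mutant 1 below it, while the female mutant lay below both female controls. Sex was read from the data and each sex holds a group of 1 array. A genotype by sex interaction passed in 0% of all genes, and for the 9 markers limma gave adjusted p between 0.766 and 0.769. With sex as a covariate Adipoq stood at 0.036 and Ucp1 at −1.83, and neither passed.

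Of 22 other genes of brown and beige fat, 20 were measured, and 2 rose, none fell and 18 did not pass, with a median difference of −0.25. Among all genes 9.62% passed, and their median difference was −0.02. The 18 all had differences below 0, some of them close to it, such as Lhx8 (−0.01) and Zic1 (−0.03). By limma, 5 of the 20 genes reached an unadjusted p under 0.05, where 22.4% of all genes did, and the 5 include the 2 that rose. Deiodinase 2 (Dio2), which makes active thyroid hormone, rose by 1.55, with 8.79, 8.15 and 8.73 in the mutants, against 7.29, 6.74 and 6.99 in the controls (limma adjusted p = 0.00555). The coactivator Ppargc1a, a driver of mitochondrial genes, rose by 0.87 (limma adjusted p = 0.0173), with 9.39, 9.29 and 9.72 in the mutants, against 8.33, 8.79 and 8.65 in the controls. Both thus stood higher in all 3 mutants than in any control, unlike Ucp1. Ppargc1a did not pass without mutant 1 (0.91, limma adjusted p = 0.0628) or mutant 3 (0.75, 0.0628).

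The largest differences below 0 were those of Pdk4, a kinase that slows glucose oxidation, and Ucp3, a relative of Ucp1 found mostly in muscle. Pdk4 had values of 8.45, 10.002 and 9.53 in the mutants, against 11.59, 11.22 and 10.06 in the controls (−1.63, limma adjusted p = 0.103). Ucp3 had values of 7.02, 8.06 and 7.07 in the mutants, against 9.26, 9.52 and 8.13 in the controls (−1.59, limma adjusted p = 0.0656). For both genes every mutant lay below every control, and neither passed. The same held for Prdm16, another gene of this list (−0.36, limma adjusted p = 0.232). Among all genes 28.1% had groups that did not overlap. Several genes of this list are also active in muscle. Cox8b and Cox7a1, subunits of cytochrome oxidase, and Cpt1b, which brings fatty acids into mitochondria, were high in the mice numbered 2, where muscle RNA was highest, and also in control 1, where it was low. Cox8b had values of 9.50, 12.15 and 10.08 in the mutants, against 12.47, 12.59 and 10.27 in the controls. The part of muscle in these values was not tested. Zic1, a transcription factor of classical brown fat, ran from 5.91 to 5.97 in the mutants, against 5.86 to 6.03 in the controls. Its highest value was that of control 1 (6.03), just above control 3 (6.02). Values this low may be background, so they cannot show whether Zic1 had a peak.

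**Figure D4:**
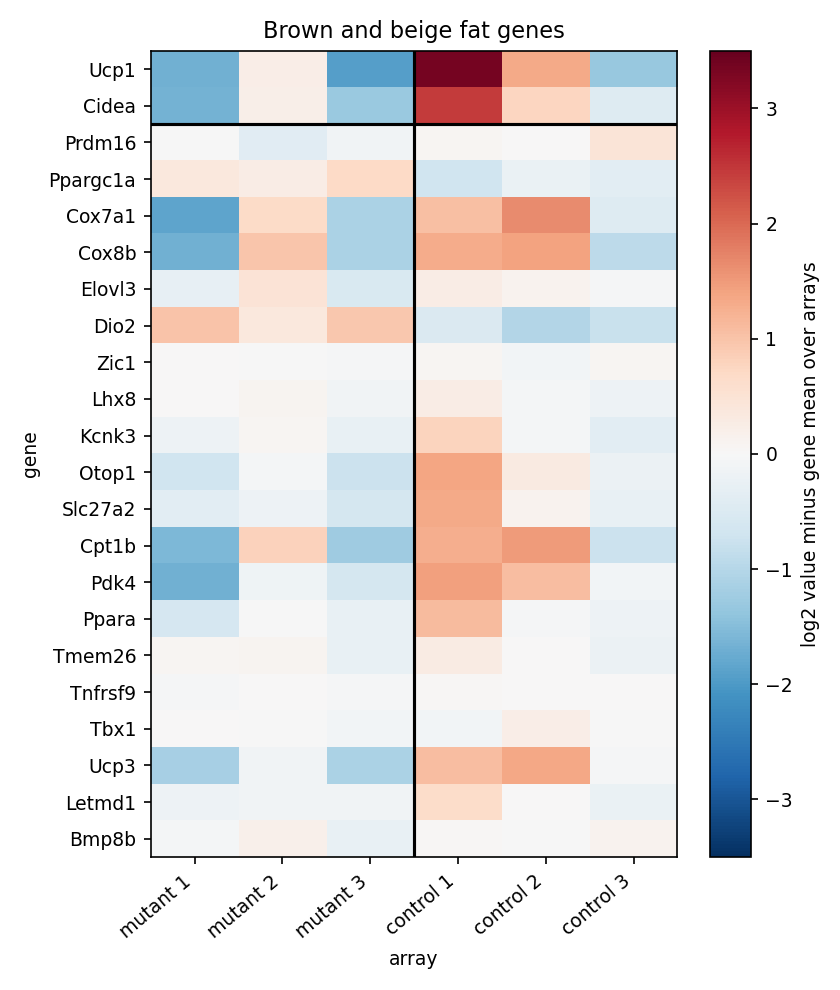
Ucp1 and Cidea (top) and the 20 measured genes of the brown and beige list, as log2 value minus the gene's mean over the 6 arrays (colour), with mutants in the 3 left columns and controls in the 3 right columns. Ucp1, Cidea and Otop1 are highest in control 1, and Dio2 and Ppargc1a are higher in all mutants than in any control.

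Across 9 lists of fat biology, 107 of 114 genes were measured, and 9 rose and 5 fell, or 13.1%, where 9.62% of all genes passed. The rises numbered 5 without mutant 1 or without mutant 3. The falls numbered 3 without mutant 1, 2 without mutant 3, 3 without control 2 and 11 without control 3. Of 14 measured genes of lipid uptake and triglyceride synthesis none passed (median −0.25), and the smallest p was that of the acyltransferase Gpam (−0.71, limma adjusted p = 0.177, or 0.0334 with the replicate number as a block). Of 9 other adipokines none passed (median −0.16), and the smallest p was that of Nampt (−0.29, limma adjusted p = 0.326). At an unadjusted p under 0.05 the counts were 1 of 14 and 0 of 9, where 22.4% of all genes reached it.

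Among all genes 3.89% passed as lower. Of 16 measured droplet and lipolysis genes 1 fell (median −0.40). It was Faah, the hydrolase of fatty acid amides, at 8.22, 8.25 and 8.31 in the mutants, against 9.55, 9.58 and 10.19 in the controls (−1.51, limma adjusted p = 0.00324). Of 7 lipogenic genes Elovl6, a fatty acid elongase that myelinating cells also use, fell by 2.15 (limma adjusted p = 0.000244). Of 13 other fat cell markers gamma-synuclein (Sncg), also a neuronal protein, fell by 0.67 (limma adjusted p = 0.0154), but not without mutant 3 (−0.66, 0.0755). For Faah, Elovl6 and Sncg control 3, the nerve with the lowest white fat profile, had the highest value of all 6 arrays. Most white and shared markers were lowest there.

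Fat cell transcription factors went both ways (13 measured, 2 higher, 1 lower, median 0.003), where 5.74% of all genes passed as higher and 3.89% as lower. Klf5, a factor of early fat cell formation, rose by 1.25 (limma adjusted p = 0.00161). Ebf2, which marks brown fat precursors in mice, rose by 1.02 (0.00169 by limma, adjusted), with 11.36, 11.08 and 11.30 in the mutants, against 10.27, 10.21 and 10.20 in the controls. The retinoid receptor Rxrg, a partner of PPARG, fell by 2.03 (limma adjusted p = 0.0163). Rxrg did not pass without mutant 1 (−1.79, 0.064), mutant 3 (−1.83, 0.0727) or control 2 (−1.89, 0.0565).

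Of 6 receptor genes of adipokines 1 passed (median −0.16). It was Lepr, the leptin receptor, which rose by 1.37 (limma adjusted p = 0.00137), with 9.42, 9.02 and 9.35 in the mutants, against 7.89, 7.81 and 7.98 in the controls. The spread of Lepr within groups was small beside that of Lep, at 0.22 and 0.09 (SD) in the mutants and controls. Of 9 measured precursor genes 4 rose besides 1 that fell (median 0.51), where 9.62% of all genes passed, 5.74% as higher and 3.89% as lower. Zfp521, a zinc finger factor that restrains fat cell formation in mice, rose by 1.00 (limma adjusted p = 0.00525), Cd34 by 0.74, Icam1 by 0.56 and Pdgfra by 0.51.

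The surface protein Cd24a fell by 1.24 (limma adjusted p = 0.0145). Without mutant 1 the limma adjusted p was 0.0555 for Cd34, 0.056 for Icam1, 0.105 for Pdgfra and 0.0544 for Cd24a. Without mutant 3 it was 0.0581 for Cd34, 0.0564 for Icam1, 0.101 for Pdgfra and 0.071 for Cd24a. Pdgfra also missed the threshold without control 2 (0.0609) or control 3 (0.0569), and Cd24a without control 2 (0.0518). Cd34, Icam1 and Pdgfra are carried by fibroblasts or endothelium too. Among all genes 5.74% passed as higher and 3.89% as lower, and 22.4% reached an unadjusted p under 0.05 by limma. Of 6 fibroblast markers, Pdgfra among them, 2 rose and none fell. Their mean was 12.63 to 12.84 in the mutants, against 12.30 to 12.45 in the controls. The mean of 6 macrophage markers was 9.72 to 10.05 in the mutants, against 9.38 to 9.74 in the controls, and none passed (3 of 6 at an unadjusted p under 0.05). With the block Lyz2 among them did (0.58, limma adjusted p = 0.0311). The mean of 7 endothelial markers was 10.11 to 10.17 in the mutants, against 9.99 to 10.42 in the controls, and 1 fell. It was Cldn5, a tight junction protein (−0.42, limma adjusted p = 0.035), which missed the threshold in 5 of the 6 fits without 1 array (0.0723 to 0.129). The mean of 6 measured lymph node markers was 6.66 to 6.75 in the mutants, against 6.63 to 6.81 in the controls. The part of these cells in the precursor genes was not tested.

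**Figure D5:**
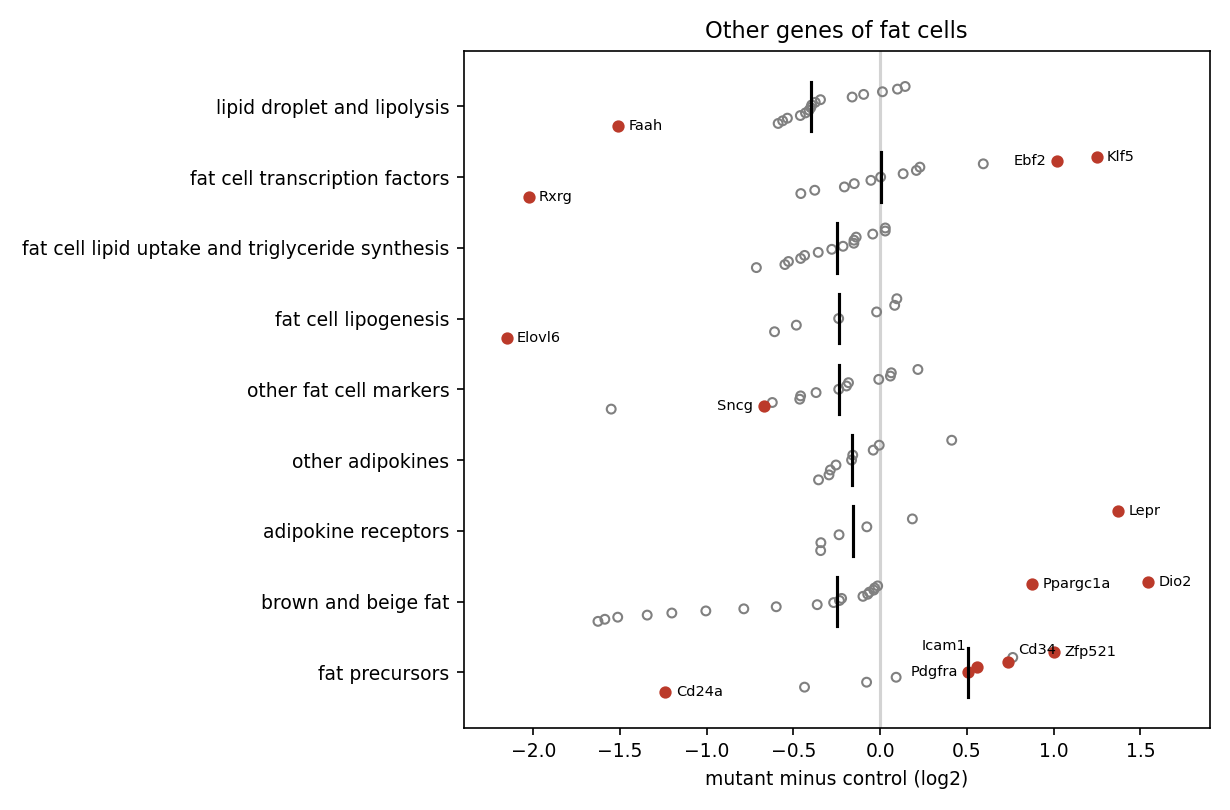
Difference of each measured gene of 9 fat lists, mutant minus control (log2), with genes past an adjusted p of 0.05 filled and named, others open, and a bar at each list's median. The medians lie between −0.40 and 0.51, and the filled points are Faah, Rxrg, Elovl6, Sncg and Cd24a at the left and Klf5, Ebf2, Lepr, Dio2, Ppargc1a, Zfp521, Cd34, Icam1 and Pdgfra at the right.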

How the data were processed

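Total RNA from sciatic nerves was isolated with Trizol, copied with an Ambion WT Expression kit and put on Affymetrix arrays after biotin labelling, per the labels' protocols. The authors deposited log2 values, 1 per probe set and mouse (3.55 to 14.52). The log base was read from the values, while the background correction and normalization are not given in the sources. The submitters' processing notes name limma. Platform annotation named 20239 of 21225 probe sets, and 986 are unnamed here.

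R 4.3.3 and limma 3.58.1 gave the difference, mutant minus control, for all named genes (linear model, moderated variance, two-sided), with Benjamini-Hochberg adjustment over all genes. Groups follow the genotype in the labels, which call the samples biological replicates. Precision is limited by the number of arrays. The members and lists were chosen with earlier results of these data known. Named genes were all members, up to 4 called members of each list (or the one with the smallest p) and the genes most like the white fat profile, Ucp1 and Cidea. Cox8b, Cox7a1, Cpt1b, Zic1, Pdk4, Ucp3 and Prdm16, and Pdgfra within the precursor list, were chosen after their values were seen. Same-numbered mice deviated together over all genes (correlations 0.36, 0.574 and 0.295), so the replicate number was used as a block in an alternative. The fit was tested on simulated data. Other alternatives changed the filter, normalization, pseudocount, prior, array weights, covariates or array set. Python 3.11.15 and matplotlib 3.10.9 made the figures.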

Additional observations from a re-analysis of the deposited data

Results flagged for a closer look

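In 7 markers every male mutant lay above the male control while the female mutant lay below every female control, so that the genotype difference had opposite signs in the sexes. The difference in females minus that in males was −2.15 for Adipoq, −3.37 for Lep, −2.20 for Retn, −2.19 for Pparg, −2.47 for Plin1, −2.08 for Cidec and −2.03 for Lipe, on the log2 scale. Tested as an interaction over all genes, 0 of the 7 passed (limma adjusted p = 0.766 for each), and 0 of 20239 genes did. At an unadjusted p under 0.05 the interaction was reached by 8 of the 9 markers and by 6.06% of all genes. The sexes hold 2 mutants and 1 control (males) and 1 mutant and 2 controls (females), the 7 genes share the same 6 nerves, and the interaction was chosen after seeing the data.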

How the results depend on the processing

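With all 6 arrays 1161 genes were higher and 787 lower in the mutants. These counts became 2411 and 1244 with array weights, the lower count 453 without the mice numbered 2, and leaving out 1 array gave 502 to 1397 higher and 392 to 744 lower. In the 9 fat lists, 9 genes were higher and 5 lower, with 15 lower under array weights and 9 lower with the fat score as a covariate, and 5 to 9 higher and 2 to 11 lower when 1 array was left out. Among the members, the sign turned with the fat score as a covariate for Adipoq (0.23), Pparg (0.13), Plin1 (0.20) and Lipe (0.25), with sex as a covariate for Adipoq (0.036) and Lipe (0.053), and with array weights for Retn (−0.085). Leaving out 1 array gave −0.79 to 0.31 for Adipoq, −0.50 to 0.44 for Retn, −0.82 to 0.21 for Pparg, −0.88 to 0.27 for Plin1, −0.40 to 0.67 for Cidec and −0.70 to 0.30 for Lipe. Ucp1 passed as lower with the fat score (−1.25, limma adjusted p = 0.0233), with that score and without control 1 (−1.33, 0.0266), and with the white fat profile as a covariate (−1.76, 0.0176), the last 2 chosen after seeing the data. Its adjusted p over all its alternatives ran from 0.0176 to 0.663. Cidea passed with array weights (−2.27, 0.0309), with a range of 0.0309 to 0.539, and was at −1.53 (0.0591) with the white fat profile. Cidec passed with the fat score (0.59, 0.0204) and with that score and without control 1 together (0.59, 0.0345), but not without control 1 alone (0.67), with a range of 0.0204 to 0.953. The causes were not tested. With the replicate number as a block Ucp1 stood at −2.24 (limma adjusted p = 0.162) and the fat lists had 10 higher and 7 lower genes. The block ended the call of Cldn5 among the endothelial markers (−0.42, 0.0503), let Gpam (−0.71, 0.0334) and Lyz2 (0.58, 0.0311) pass, and changed no call of the 9 markers. The call of Cldn5 was also lost with sex (0.0602) or the muscle score (0.0534) as a covariate, and without the mice numbered 2 (0.0842). Ucp1 has no value without the lowest 50% of genes, which removes it. Low values of Ucp1 and Cidea may be background, which was not measured, and 6 arrays limit every interval.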
